A study of Mus musculus with 19 samples.

Results

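Described here are 9 measured genes that lie near Mat1a on mouse chromosome 14. Each differed at least 2-fold between the group means of Mat1a knockout (KO) livers and wild-type (WT) livers of placebo-treated mice. They are Psmb5, Cgrrf1, Fbxo34, Cebpe, Supt16, Ndrg2, Lrtm1, Fam25c and 1700123O20Rik, out of 8529 named genes measured. They were chosen by the means of KO placebo and WT placebo arrays, so that contrast is given below as values only. Of the 100 measured genes nearest to Mat1a in gene order, 10 were at least 2-fold apart in that contrast by their brightest probe, as were 5.46% of all genes, and these 9 are among the 10. Cgrrf1 (log2 difference -1.04) lay just inside the limit, and so did Chdh (1.15), which is not one of the 9. Tmem260 (-0.99), Lrp10 (0.98), Nisch (0.97) and Glud1 (-0.89) lay just outside it.

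The livers came from 19 mice, all 10 months old, and their RNA was read on single-colour Illumina BeadChips, on which probes specific for a gene sit on beads, with 1 array per animal ID. The groups were 5 Mat1a KO mice given S-adenosylmethionine (SAMe), 6 Mat1a KO mice given placebo and 8 WT mice given placebo, each for 8 weeks. They are called KO SAMe, KO placebo and WT placebo livers here. The labels name no SAMe-treated WT group, and the sources used here give neither the mouse strain, nor that of the cells in which Mat1a was targeted, nor the sex.

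Mat1a codes for the liver enzyme that makes SAMe, from which most methyltransferases take their methyl group. A mouse line made by gene targeting in embryonic stem cells keeps, on both sides of the targeted gene, a stretch of chromosome from the strain of those cells, which crossing to another strain shortens but seldom removes. An array probe reads lower when its transcript is scarcer and also when the transcript differs in sequence under the probe. The probe sequences were not used here, so for each gene below a difference in transcript level and a difference in sequence under the probe cannot be told apart. In whole liver, fewer cells of a type and less RNA per cell cannot be told apart either.

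The stretches before the starts of 4 of the 9 genes are shown because these 4 hold the lowest and the highest KO values relative to WT livers and the clearest disagreement between probes of 1 gene. Each is the 250 bases before the start of the gene, written in the direction of the gene, from RefSeq on build GRCm38.p6 of a C57BL/6J mouse and not read from these animals. Fam25c lies at chr14:34355394-34355643 on the minus strand, Psmb5 at chr14:54617996-54618245 on the minus strand, Supt16 at chr14:52197240-52197489 on the minus strand and Lrtm1 at chr14:29017958-29018207 on the plus strand. Capitals mark matches on either strand to TATAAA (the TATA box), CCAAT (the CCAAT box), GGGCGG (the GC box) or CACGTG (an E-box), and none of these matches overlaps another.
Fam25c: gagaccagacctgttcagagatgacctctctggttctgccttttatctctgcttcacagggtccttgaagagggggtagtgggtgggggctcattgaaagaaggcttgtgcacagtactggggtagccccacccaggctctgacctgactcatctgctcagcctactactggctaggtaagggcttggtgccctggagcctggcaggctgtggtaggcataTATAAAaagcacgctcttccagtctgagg
Psmb5: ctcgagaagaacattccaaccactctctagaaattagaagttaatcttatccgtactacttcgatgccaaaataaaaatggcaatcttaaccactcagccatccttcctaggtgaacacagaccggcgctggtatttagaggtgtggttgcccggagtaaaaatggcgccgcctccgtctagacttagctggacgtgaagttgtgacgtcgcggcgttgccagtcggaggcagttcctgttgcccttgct
Supt16: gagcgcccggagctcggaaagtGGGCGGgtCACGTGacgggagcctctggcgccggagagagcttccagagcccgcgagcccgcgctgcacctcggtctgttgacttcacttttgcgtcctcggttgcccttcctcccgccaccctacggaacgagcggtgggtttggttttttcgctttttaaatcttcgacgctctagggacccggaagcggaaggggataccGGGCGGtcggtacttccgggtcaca
Lrtm1: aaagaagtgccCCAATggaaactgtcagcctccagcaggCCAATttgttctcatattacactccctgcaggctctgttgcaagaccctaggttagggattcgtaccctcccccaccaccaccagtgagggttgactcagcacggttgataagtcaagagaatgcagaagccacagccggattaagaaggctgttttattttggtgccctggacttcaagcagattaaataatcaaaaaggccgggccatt

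Of these 4 stretches, Fam25c held TATAAA, starting 29 bases before the gene, Supt16 held GGGCGG at 2 places and CACGTG at 1, Lrtm1 held CCAAT at 2 places, and Psmb5 held none of the 4 motifs. Among all 32851 windows of the same length in the RefSeq table, 12.4% held TATAAA, 33.8% CCAAT, 32.7% GGGCGG and 6.02% CACGTG. The 8 of the 9 genes that the table holds have 10 windows, of which 3 held TATAAA, 3 CCAAT, 6 GGGCGG and 1 CACGTG. The 4 stretches thus share no motif of this set, and their GC content was between 49.2% (Lrtm1) and 63.6% (Supt16), against a median of 52.4% over all windows.

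Each array detected between 25.5% and 31.8% of its 45281 probes, and precision is limited by how many arrays there are. By raw background the arrays formed 2 sets, of which the labels say nothing: 5 had a median raw signal between 93.6 and 100, namely 4 of the 6 KO placebo arrays and 1 WT placebo array, and 14 had one between 75.1 and 85.8. The 4 KO placebo arrays were those whose animal ID ends in J, while the other 2 end in G, all WT placebo IDs end in K, and KO SAMe IDs end in G, I or K. The labels do not say what the letter stands for. Of 10 hepatocyte markers 8 were measured and were detected on all arrays, and their summed linear intensity was between 28600 and 30000 in KO SAMe, 28900 and 31800 in KO placebo and 23900 and 30600 in WT placebo livers. The targeted gene was low in all KO livers: Mat1a read 9.52, 9.76, 9.73, 9.48 and 9.64 on the log2 scale in KO SAMe livers, between 8.96 and 9.81 in KO placebo livers (median 9.60), and between 11.93 and 12.32 in WT placebo livers (median 12.09). The sources used here do not say whether its single probe lies in the deleted part.

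The 9 genes have 19 probes in the annotation, of which 17 passed the detection filter (detected at p under 0.05 on 5 or more arrays), with at least 1 probe for each gene. For probes not detected in KO livers, WT placebo arrays alone carried them past the filter, so counts over these 17 probes are descriptions. KO SAMe arrays took no part in choosing the genes, but the WT placebo arrays they are set against did. The test against WT placebo livers does not allow for this choice. The adjusted p-values given below for the 9 genes against WT placebo livers are therefore descriptions too. Between KO SAMe and WT placebo livers 15 of the 17 probes passed a limma adjusted p of 0.05, 12 lower and 3 higher. Of all 14295 probes tested, 16.3% passed in that comparison, 7.82% lower and 8.47% higher. A fit that blocked on the background set passed 16 of the 17, and low-background arrays by themselves passed 14. Among animals of ID letter K (2 KO SAMe and 8 WT placebo) 13 passed. At 11 of the 17 probes every KO array of either treatment lay below every WT placebo array, as did 1.81% of all probes, and at none did every KO array lie above, as for 1.83% of all probes. KO SAMe arrays by themselves lay wholly below WT placebo arrays at 11 of the 17 probes and at 2.43% of all probes. Between the means of KO placebo and WT placebo livers, the contrast used for the choice, 12 of the 17 probes were at least 2-fold apart, beside 4.96% of all probes.

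**Figure D1:**
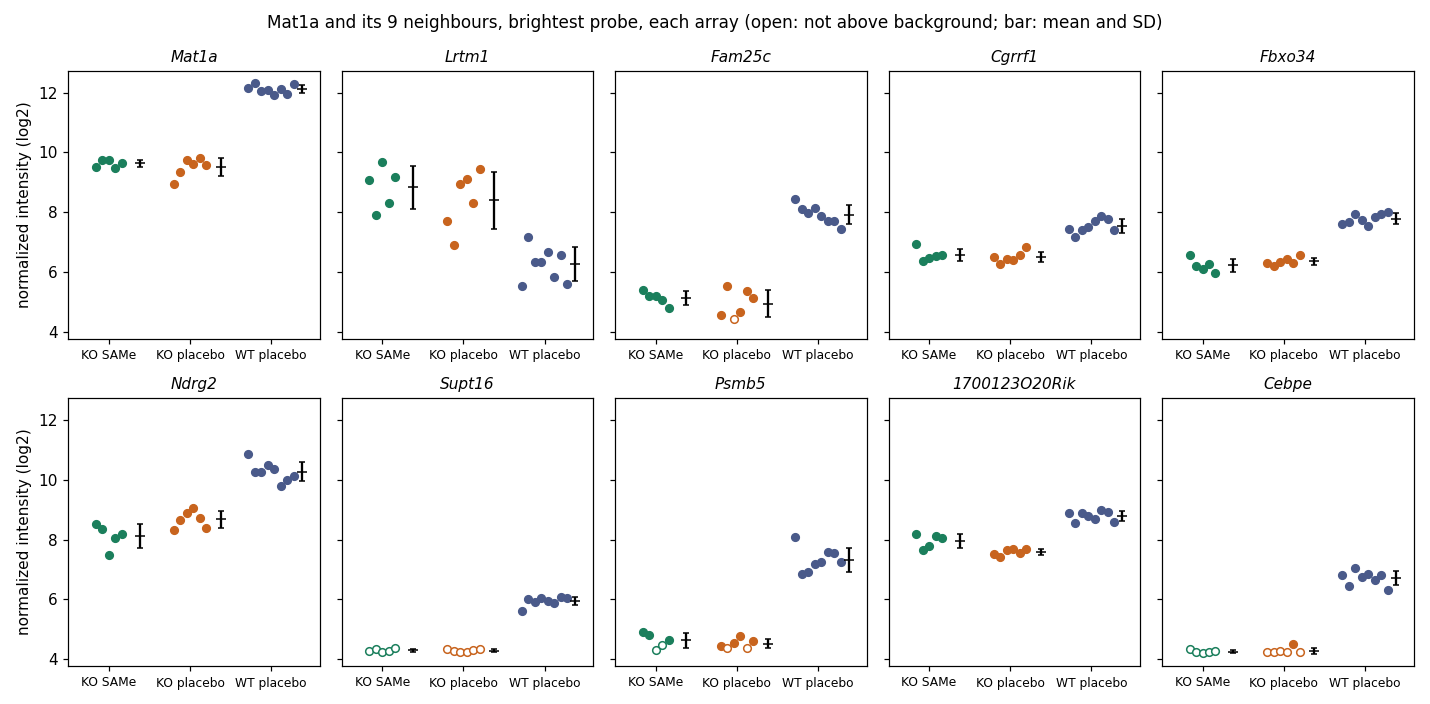
Normalized log2 intensity (vertical axis) of Mat1a and the 9 genes by their brightest probe, for KO SAMe (n = 5), KO placebo (n = 6) and WT placebo (n = 8) livers. Mat1a is drawn first, and the 9 genes follow in gene order along chromosome 14. Each point is 1 array, open where the probe was not above background, and the bar at the right of each group is its mean with SD. Except for Lrtm1, all KO points lie below all WT points, and Supt16 and Cebpe sit near the floor of the scale in KO livers.

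Psmb5 codes for the chymotrypsin-like catalytic subunit of the proteasome, the complex that degrades ubiquitin-tagged proteins. Its single probe (ILMN_2613469) read 4.90, 4.81, 4.31, 4.49 and 4.63 in KO SAMe livers, between 4.37 and 4.77 in KO placebo livers (median 4.50), and between 6.86 and 8.08 in WT placebo livers (median 7.24). No KO array came within 1.96 log2 units of the lowest WT placebo array. Psmb5 was 6.52-fold lower in KO SAMe than in WT placebo livers (log2 difference -2.71, SE 0.16, limma adjusted p = 7.1e-11), and the KO placebo mean was 7.02-fold below the WT placebo mean. The probe was detected on 3 of 5 KO SAMe arrays, 4 of 6 KO placebo arrays and all 8 WT placebo arrays, so in KO livers it was at the edge of detection. The size depended on the background correction, with a log2 difference of -1.34 in the authors' deposited log2 values and -1.62 with normexp at an offset of 50.

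Cgrrf1 codes for a RING finger protein, the RING being a domain that many ubiquitin ligases carry. Its brightest probe (ILMN_2635850) read 6.93, 6.39, 6.47, 6.54 and 6.56 in KO SAMe livers, between 6.28 and 6.83 in KO placebo livers (median 6.48), and between 7.19 and 7.89 in WT placebo livers (median 7.47). KO and WT arrays did not overlap, with a gap of 0.26. It was 1.95-fold lower in KO SAMe than in WT placebo livers (-0.97, SE 0.12, limma adjusted p = 1.3e-05). At the second probe (ILMN_1233220) the difference was -0.41 (adjusted p = 0.025), the groups overlapped, and the call ended under 6 alternatives, with adjusted p between 0.051 and 0.26. Another probe was detected on 0 of 5 KO SAMe, 2 of 6 KO placebo and 2 of 8 WT placebo arrays and was not tested.

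Fbxo34 codes for an F-box protein, the kind of subunit that picks substrates for SCF ubiquitin ligases. Its brightest probe (ILMN_2747552) read 6.57, 6.20, 6.12, 6.28 and 5.98 in KO SAMe livers, between 6.20 and 6.57 in KO placebo livers (median 6.33), and between 7.55 and 8.02 in WT placebo livers (median 7.79). The groups were 0.98 apart. Fbxo34 was 2.95-fold lower in KO SAMe than in WT placebo livers (-1.56, SE 0.10, limma adjusted p = 8.2e-10). A second probe (ILMN_2747553) gave nearly the same difference (-1.55, adjusted p = 5e-08, and -0.95 in the authors' deposited log2 values), while at another (ILMN_2876325) it was -0.34 (adjusted p = 0.07) and the groups overlapped.

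Of the genes that act in the nucleus, Cebpe codes for a C/EBP transcription factor known for the late steps of granulocyte formation. It was not detected on any of the 5 KO SAMe arrays, on 1 of 6 KO placebo arrays and on all 8 WT placebo arrays. The brightest probe (ILMN_1220301) read 4.34, 4.24, 4.21, 4.26 and 4.27 in KO SAMe livers, between 4.23 and 4.50 in KO placebo livers (median 4.25), and between 6.30 and 7.06 in WT placebo livers (median 6.77). Cebpe was at least 4.64-fold lower in KO SAMe than in WT placebo livers, a bound that sets the WT placebo mean against the lowest detected signal of each KO SAMe array or the probe's own value, whichever was higher. The second probe (ILMN_3029849), detected on no KO array and on all 8 WT placebo arrays, was at least 3.04-fold lower. Both probes passed the filter through WT placebo arrays, in addition to the choice of the gene by them, so no p is given. In the authors' deposited log2 values the measured differences were -1.05 and -0.76, and with normexp at an offset of 50 they were -1.32 and -1. Both bounds therefore apply to the normexp correction with detection p-values. Another probe was detected on 2 of 8 WT placebo arrays only and was not tested. At both probes that passed the filter every KO array lay below every WT placebo array, which follows in part from the filter and the choice of the gene. At the probe that was not tested, KO and WT arrays overlapped. Granulocyte genes were scarce throughout: of 15 listed, 7 appear in the annotation and 3 passed the filter. S100a8 averaged 5.05 in KO SAMe, 5.27 in KO placebo and 5.73 in WT placebo livers, S100a9 averaged 5.03, 5.05 and 5.30 in the same groups, and Mmp9 4.43, 4.45 and 4.64. None of these 3 was called in KO SAMe against WT placebo livers (adjusted p between 0.16 and 0.78), and their part in the difference of Cebpe was not tested.

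Supt16 codes for the large subunit of FACT, a chaperone that loosens and restores nucleosomes during transcription. Its brightest probe (ILMN_2768053) read 4.27, 4.33, 4.26, 4.28 and 4.39 in KO SAMe livers, between 4.23 and 4.35 in KO placebo livers (median 4.28), and between 5.63 and 6.08 in WT placebo livers (median 5.98). It was detected on all 8 WT placebo arrays and on no KO array, and was at least 2.74-fold lower in KO SAMe livers. It passed the filter through WT placebo arrays alone, so no p is given. The measured difference of -1.64 was -0.61 in the authors' deposited log2 values and -0.79 with normexp at an offset of 50, so the bound applies to the normexp correction with detection p-values. The second probe (ILMN_2765463) lay the other way, at 4.78, 4.89, 5.04, 5.11 and 5.31 in KO SAMe livers, between 4.73 and 5.18 in KO placebo livers (median 5.02) and between 4.23 and 5.01 in WT placebo livers (median 4.63). That probe was detected on all 11 KO arrays and on 5 of 8 WT placebo arrays. Its difference of 0.40 between KO SAMe and WT placebo livers (SE 0.13, adjusted p = 0.041) had overlapping groups and was lost under 13 of 28 alternatives, with values between 0.13 and 0.46. The direction for Supt16 therefore depends on the probe. Supt16 overlaps Rpgrip1 in the RefSeq annotation.

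Ndrg2 codes for an N-myc downstream-regulated protein with an alpha/beta hydrolase fold, studied as a candidate tumour suppressor. Its brightest probe (ILMN_2771991) read 8.52, 8.36, 7.47, 8.05 and 8.19 in KO SAMe livers, between 8.33 and 9.04 in KO placebo livers (median 8.68), and between 9.79 and 10.85 in WT placebo livers (median 10.25). All KO arrays lay at least 0.75 below all WT placebo arrays. Ndrg2 was 4.41-fold lower in KO SAMe than in WT placebo livers (-2.14, SE 0.17, limma adjusted p = 2.5e-08). The second probe (ILMN_3001650) gave -0.18 (SE 0.21, adjusted p = 0.63), with 6.12, 5.88, 6.23, 6.36 and 6.57 in KO SAMe livers, 5.92 to 7.01 in KO placebo livers and 5.93 to 7.13 in WT placebo livers. At that probe the 4 KO placebo arrays of the high-background set read 6.76 to 7.01 and the other 2 read 5.92 each, and the WT placebo array of that set was the highest of its group. The part of the background set in these values was not tested.

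Lrtm1, which codes for a membrane protein with leucine-rich repeats, was the gene of the 9 whose brightest probe was higher in KO livers. That probe (ILMN_1241151) read 9.07, 7.91, 9.68, 8.31 and 9.17 in KO SAMe livers, between 6.91 and 9.45 in KO placebo livers (median 8.62), and between 5.54 and 7.19 in WT placebo livers (median 6.34). All KO SAMe arrays lay above all WT placebo arrays, whereas 1 KO placebo array overlapped them. Lrtm1 was 5.89-fold higher in KO SAMe than in WT placebo livers (2.56, SE 0.37, limma adjusted p = 6.4e-05). The second probe (ILMN_2593694) gave 2.05 (SE 0.35, adjusted p = 0.00033). In the authors' deposited log2 values these differences were 1.86 and 1.15, and with normexp at an offset of 50 they were 2.04 and 1.35. The spread between arrays of a group was wide, with a pooled SD of 0.74, and 99.4% of probes had a smaller one. Over the 11 KO arrays the probes of Lrtm1 followed each other (Pearson r = 0.99, across arrays that share the probes' RNA), while the other 8 pairs of probes of 1 gene had r between 0.13 and 0.69. By ID letter, KO SAMe livers read 9.68 (G, 1 array), 9.12 (I, 2 arrays) and 8.11 (K, 2 arrays), and KO placebo livers read 8.87 (G, 2 arrays) and 8.17 (J, 4 arrays). Lrtm1 lies within Cacna2d3 in the annotation.

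The last pair of genes has no well-established function. Fam25c, a small gene of the FAM25 family, read 5.41, 5.20, 5.20, 5.08 and 4.80 at its single probe (ILMN_2678637) in KO SAMe livers, between 4.42 and 5.53 in KO placebo livers (median 4.90), and between 7.43 and 8.43 in WT placebo livers (median 7.92). The gap between KO and WT arrays was 1.91. Fam25c was 6.90-fold lower in KO SAMe than in WT placebo livers (-2.79, SE 0.18, limma adjusted p = 5.1e-10), with -1.62 in the authors' deposited log2 values and -1.88 with normexp at an offset of 50. It was detected on all 5 KO SAMe, 5 of 6 KO placebo and all 8 WT placebo arrays.

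The RIKEN gene 1700123O20Rik read 8.17, 7.65, 7.78, 8.13 and 8.06 at its brightest probe (ILMN_2999447) in KO SAMe livers, between 7.41 and 7.69 in KO placebo livers (median 7.60), and between 8.56 and 8.99 in WT placebo livers (median 8.83). The groups of KO and WT arrays were 0.39 apart. It was 1.78-fold lower in KO SAMe than in WT placebo livers (-0.83, SE 0.10, limma adjusted p = 1e-05), against 2.31-fold between the means of KO placebo and WT placebo livers. Its dimmer probe (ILMN_2597332), detected on no KO array and on all 8 WT placebo arrays, was at least 1.44-fold lower in KO SAMe livers. No p is given because WT placebo arrays alone carried it past the filter. The measured difference of -0.77 was -0.27 in the authors' deposited log2 values and -0.38 with normexp at an offset of 50. This bound thus applies to the normexp correction with detection p-values. The gene overlaps Acin1 in the annotation.

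In the comparison of SAMe with placebo within KO mice, KO placebo arrays took part in choosing the genes, which the test of this comparison does not allow for. Between KO SAMe and KO placebo livers 2 of the 17 probes passed an adjusted p of 0.05, and 17.2% of all probes tested did, so the count says little about these genes. Ndrg2 was lower in KO SAMe livers by its brightest probe (-0.55, SE 0.18, limma adjusted p = 0.043), farther from WT placebo livers, and 1700123O20Rik was higher (0.38, SE 0.11, adjusted p = 0.02), nearer to them. KO SAMe and KO placebo arrays overlapped for both. Neither call held with the background set as a block, where Ndrg2 differed by -0.30 (adjusted p = 0.43) and 1700123O20Rik by 0.38 (adjusted p = 0.086), nor within low-background arrays (-0.43 and 0.34, adjusted p = 0.4 and 0.33). Leaving out KO placebo replicate 2 or KO SAMe replicate 4 left 0 calls, and leaving out KO placebo replicate 3, 4 or 5, KO SAMe replicate 1, 3 or 5, or WT placebo replicate 3 or 5 left 1. The balance of directions depended on the normalization: with each array scaled to its median over all probes 5 were lower and 0 higher, and with its median over the filtered probes 1 was lower and 3 were higher.

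The other 15 probes differed between KO SAMe and KO placebo livers by -0.36 to 0.49 on the log2 scale. Their 95% intervals ran from -0.82 to 1.25, and without Lrtm1 from -0.82 to 0.59, which is the range of changes these arrays allow. For Psmb5 the difference was 0.11 (interval -0.24 to 0.45), for Fam25c 0.19 (-0.21 to 0.59), for the brightest probe of Fbxo34 -0.14 (-0.36 to 0.09) and for that of Lrtm1 0.43 (-0.39 to 1.24). Mat1a itself differed by 0.12 (-0.14 to 0.38).

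**Figure D2:**
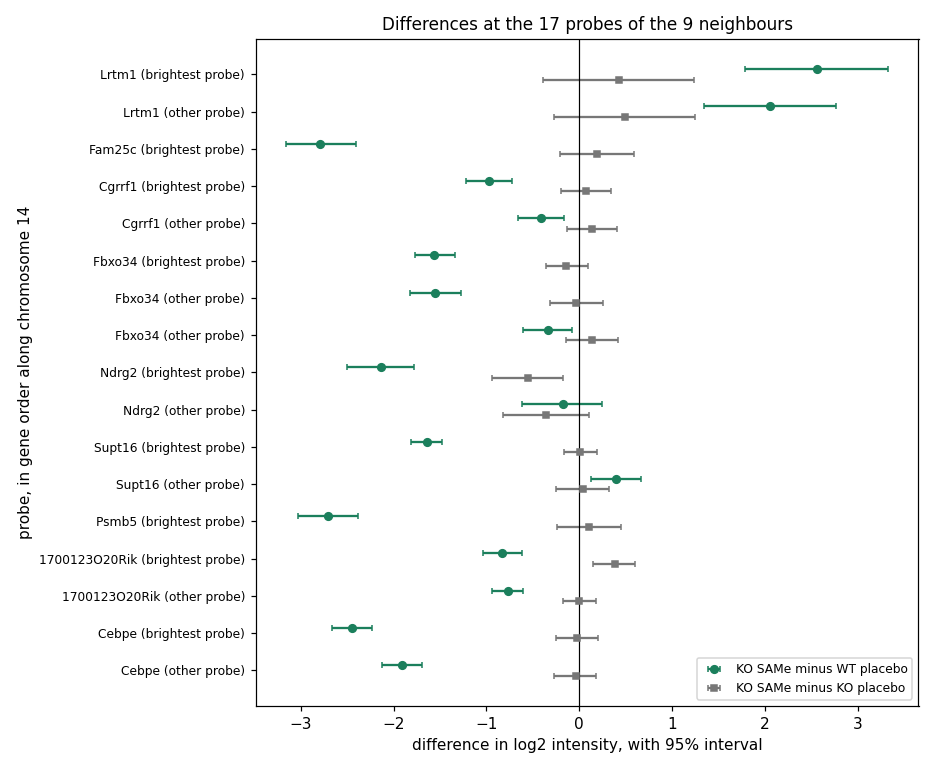
Difference in log2 intensity (horizontal axis) at the 17 probes of the 9 genes past the detection filter, with 95% intervals from the fit, for KO SAMe minus WT placebo (green circles) and KO SAMe minus KO placebo (grey squares). Genes run down the page in their order along chromosome 14. The green circles of Supt16 (-1.64 and 0.40), Ndrg2 (-2.14 and -0.18) and Fbxo34 (-1.56, -1.55 and -0.34) are unequal between probes of 1 gene, and the grey squares lie between -0.55 and 0.49.

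Probes of the same gene often gave unequal differences between KO SAMe and WT placebo livers. Since the brightest probes were picked for a gap from these WT placebo arrays, the values of the other probes are set beside them as a description. For Ndrg2 the changes were -2.14 and -0.18, for Fbxo34 -1.56, -1.55 and -0.34, for Cgrrf1 -0.97 and -0.41, and for Lrtm1 2.56 and 2.05. For Supt16 the probe not detected in KO livers was lower while the other had a difference of 0.40. Neither probe of Cebpe was detected in KO SAMe livers, so the sizes of their falls are not set against each other, and the same holds for the dimmer probe of 1700123O20Rik.

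The spread between the largest and smallest change of a gene's probes exceeded 1 log2 unit for 3 of the 7 genes among the 9 that had more than 1 probe past the filter (Supt16, Ndrg2 and Fbxo34), with Supt16 measured from a probe at the detection floor. Over all 2594 genes with several probes past the filter it did so for 31 (1.2%), with a median spread of 0.16. Among the 165 other genes with several probes whose brightest probe was 2-fold apart between KO placebo and WT placebo livers, it did so for 15 (9.09%), with a median of 0.31. These 165 genes were picked in the same contrast, and the 7 genes are too few for a share. Transcript isoforms, probe specificity and sequence differences under a probe were not tested as sources of these spreads.

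The 9 genes stand on both sides of Mat1a. Lrtm1 and Fam25c lie before it and the other 7 after it in chromosome order. In the RefSeq annotation 99 protein-coding genes lie between Lrtm1 and Mat1a, 24 between Fam25c and Mat1a, 69 for Cgrrf1, 78 for Fbxo34, 153 for Ndrg2, 162 for Supt16, 189 for Psmb5, 193 for 1700123O20Rik and 195 for Cebpe. Counted in measured genes, Lrtm1 was the 45th before Mat1a and Cebpe the 49th after it, and most measured genes near Mat1a did not pass the test: of the 91 others among the 100 nearest, 23 were called between KO SAMe and WT placebo livers (25.3%), 12 lower and 11 higher, with a median difference of 0. Over all named genes 18.4% were called, also with a median of 0. Of these 91 genes 2 were called and at least 2-fold apart (2.2%), Glud1 and Chdh, against 1.85% of all genes. The choice had taken out 9 of the 10 genes of the 100 that were 2-fold apart between KO placebo and the same WT placebo arrays. The shares of the 91 were thus lowered by the choice, unlike those of all genes. With the 9 genes put back, 32 of the 100 were called (32%). Called and 2-fold apart were 9 (9%), and these shares include the chosen genes. Without KO SAMe replicate 2, and likewise without replicate 3, 14 of the 91 were called, and among animals of letter K 10 were. Among the 186 measured genes of chromosome 14 beyond the 100, 38 were called (20.4%). Between KO SAMe and KO placebo livers 17 of the 100 nearest genes were called (17%), against 19.6% of all genes, and none of the 100 was also 2-fold apart, against 0.985% of all genes.

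**Figure D3:**
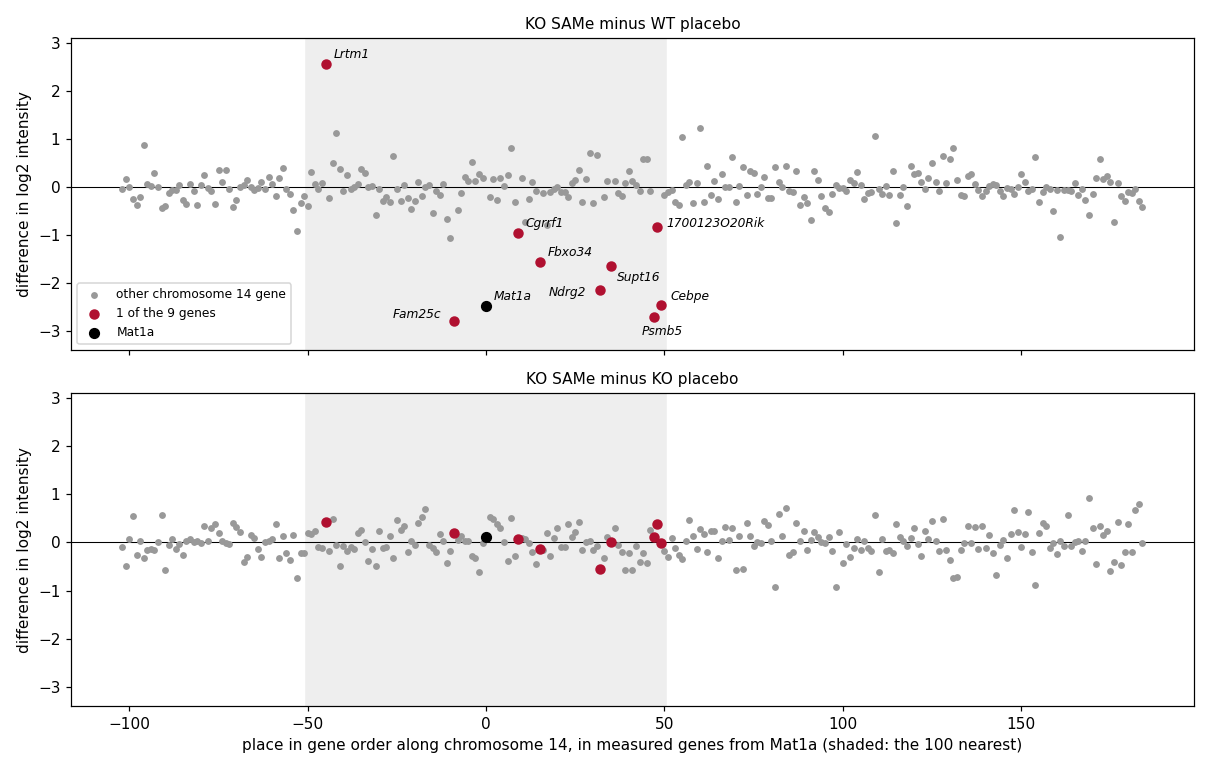
Difference in log2 intensity (vertical axis) of each measured chromosome 14 gene by its brightest probe, against its place in gene order counted in measured genes from Mat1a (horizontal axis), for KO SAMe minus WT placebo (top) and KO SAMe minus KO placebo (bottom). Red points are the 9 genes, the black point is Mat1a, grey points are other genes, and the 100 nearest genes are shaded. In the top panel 8 red points lie below -0.8 and Lrtm1 lies at 2.56 among grey points near 0, and in the bottom panel red and grey points mix.

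Of the genes on chromosome 14, 24.7% were called between KO SAMe and WT placebo livers, against 15.8% to 21.1% on the other 19 chromosomes. Those called and at least 2-fold apart were 4.88% on chromosome 14 and 0.355% to 3.17% elsewhere. These shares include the 9 genes, which were chosen for their difference from the same WT placebo arrays, and without them and Mat1a the chromosome 14 shares were 22% and 2.17%. Taking out genes chosen for a large difference lowers these shares, and no gene was taken out on the other chromosomes.

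**Figure D4:**
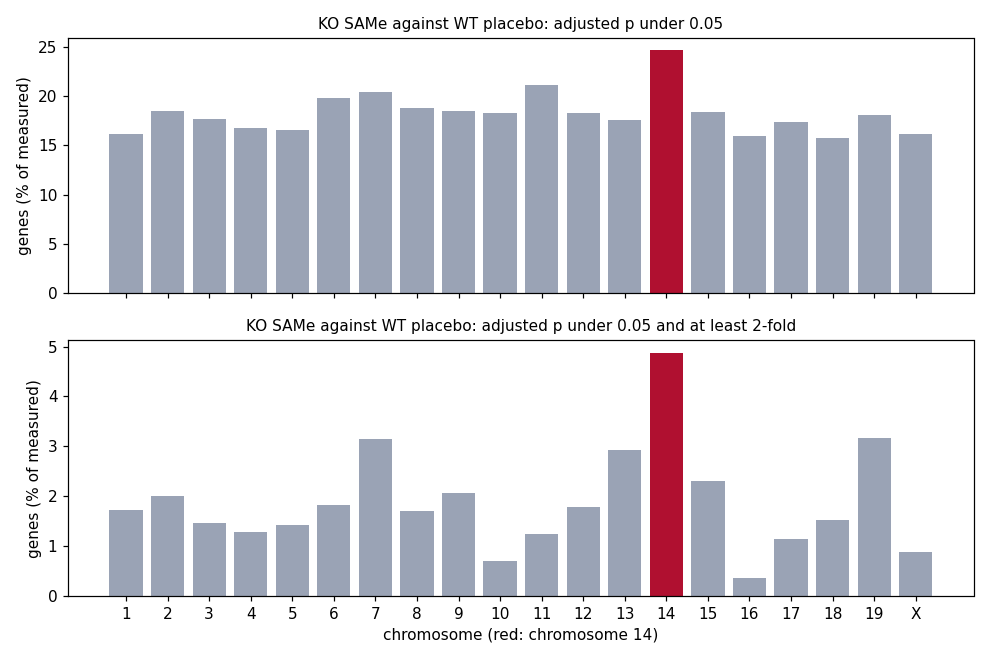
Percent of measured genes (vertical axis) called between KO SAMe and WT placebo livers at an adjusted p under 0.05 (top) and also at least 2-fold apart (bottom), for each chromosome. Chromosome 14, in red, holds the highest bar in both panels, at 24.7% and 4.88%, and includes the 9 genes and Mat1a.

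Of the 100 nearest genes, 17 were called between KO SAMe and WT placebo livers with arrays that did not overlap (17%). The share of all genes was 6.46%. Without the 9 genes, which were chosen for their difference from the same WT placebo arrays, 8 of the 91 others were (8.79%). Lower in KO SAMe than in WT placebo livers were Glud1, the gene of mitochondrial glutamate dehydrogenase (-1.06, SE 0.11, limma adjusted p = 8.6e-07), and Tmem260, a membrane protein gene (-0.80, SE 0.08, adjusted p = 6.2e-07). Higher were Chdh, which codes for choline dehydrogenase (1.11, SE 0.10, adjusted p = 8.9e-08), Mettl17 (0.66), Nisch (0.65), Ccser2 (0.51), the interleukin receptor gene Il17rb (0.50) and the calcium channel gene Cacna1d (0.38). Further probes disagreed for Glud1 (-0.55 and -0.02, neither called), Tmem260 (0.07) and Nisch (-0.03 and -0.07), and gave nearly the same value for Chdh (1.09) and Mettl17 (0.68). The calls of Ccser2 and Cacna1d ended when each array was scaled to its median over all probes (0.45 and 0.33, adjusted p = 0.06 and 0.16). They also ended among animals of ID letter K (0.62 and 0.35, adjusted p = 0.095 and 0.19). That of Ccser2 ended without KO SAMe replicate 2 as well (0.46, adjusted p = 0.053). In KO placebo livers Il17rb stood at 5.57 ± 0.20 and WT placebo livers at 5.56 ± 0.11, while KO SAMe livers stood at 6.06 ± 0.10 (SD).

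For each of the 9 genes, the 3 genes most like it over the 19 arrays were found by the absolute Pearson correlation of their brightest probes. The arrays hold both genotypes and 2 background sets, which these values do not separate. KO placebo and WT placebo arrays, which chose the 9 genes, are among the 19, so high correlations of the 9 with each other and with Mat1a follow in part from the choice. Supt16 and Cebpe were each among the nearest of the other (r = 0.981), and Mat1a was among those of Supt16 (0.980), Cebpe (0.976) and Fam25c (0.968). Fbxo34 was most like Supt16 (0.973) and Cebpe (0.965), and Fam25c and Psmb5 were close to Cebpe (0.976 and 0.974). From other chromosomes, the cytochrome P450 gene Cyp2b9 ran opposite to Supt16 (-0.981) and Psmb5 (-0.978), and the water channel gene Aqp4 ran opposite to Cebpe (-0.982) and Fam25c (-0.969). The nearest to 1700123O20Rik was Trnau1ap (0.981), to Cgrrf1 Xkr9 (0.963), to Ndrg2 Wdr55 (0.938) and to Lrtm1 Arpc1b (-0.905). Glud1, a neighbour on chromosome 14, was among the nearest 3 of Ndrg2 (0.934) and of Lrtm1 (-0.89).

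Of 13 measured core subunits of the proteasome other than Psmb5, 4 were lower and 0 higher in KO SAMe than in WT placebo livers, with a median of -0.23, against 8.24% lower and 10.2% higher among all genes. They were Psmb10 (-0.53, SE 0.13, adjusted p = 0.0088), Psmb8 (-0.51), Psma5 (-0.49) and Psmb7 (-0.34), of which Psmb8 and Psmb10 are subunits of the immunoproteasome and Psmb8 takes the place of Psmb5 in it. Against KO placebo livers 4 core subunits were higher in KO SAMe livers and 0 lower (median 0.16), namely Psma7 (0.66, SE 0.14, adjusted p = 0.0024), Psmb1 (0.37), Psmb2 (0.32) and Psma2 (0.30), where all genes had 11.8% higher and 7.76% lower. The KO SAMe minus WT placebo difference of Psmb5 was -2.71, beside -0.53 to 0.07 for the other core subunits. Psmb5 was chosen for its difference from the same WT placebo arrays and the others were not, so this contrast follows in part from the choice. Its probe was also at the edge of detection in KO livers. Of 4 measured assembly factors of the proteasome none was called against WT placebo, and Psmg3 was higher than in KO placebo livers (0.57, adjusted p = 0.0096).

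Among 4 measured C/EBP genes other than Cebpe, Cebpg was lower in KO SAMe than in WT placebo livers (-0.62, SE 0.11, adjusted p = 0.00077). Cebpb was lower than in KO placebo livers (-1.74, SE 0.27, adjusted p = 0.00055), with means of 9.14 in KO SAMe, 10.88 in KO placebo and 9.57 in WT placebo livers, while Cebpa and Cebpd were called in neither comparison. The measured histone chaperones and elongation factors were Supt6, Supt5, Asf1a, Nap1l1 and Hira, and the FACT partner of Supt16 was not among these 5. Supt6 was higher than in WT placebo livers (0.52, adjusted p = 0.025) and Nap1l1 was lower than in KO placebo livers (-0.54, adjusted p = 0.025). Of the other NDRG genes Ndrg1 was higher than in WT placebo livers (0.41, adjusted p = 0.029) and Ndrg3 was not called (-0.17, adjusted p = 0.31). None of 9 measured SCF ubiquitin ligase components, the partners of F-box proteins, was called in either comparison. Their medians were -0.14 against WT placebo and 0.02 against KO placebo livers.

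Between KO SAMe and WT placebo livers, where 18.4% of all genes were called, the cell type markers called were 1 of 8 hepatocyte markers (Ahsg, 0.57), 0 of 8 of macrophages, 1 of 4 of endothelial cells (Clec4g, -0.62), 1 of 6 of stellate cells (Reln, 0.41), 1 of 3 of cholangiocytes (Sox9, 1.09) and 1 of 3 of lymphocytes (Cd79b, -0.38). Between KO SAMe and KO placebo livers, where 19.6% of all genes were called, 2 hepatocyte markers were lower (Serpina1a, -0.67, and Hnf4a, -0.62) and 1 higher (Alb, 0.80). The Alb probe averaged 6.66 in KO SAMe, 5.86 in KO placebo and 6.46 in WT placebo livers, far below Apoa1 at 13.29, 13.26 and 13.37. The macrophage marker C1qc was lower (-0.91), and the endothelial markers Stab2 (-0.61) and Pecam1 (-0.40) were lower. The part of these markers in the values of the 9 genes was not tested. Over all 13 lists, 12 of 72 measured genes were called against WT placebo, 7 lower and 5 higher, and scaling each array to its median over all probes or over the filtered probes gave 8 and 8 lower and 1 and 2 higher. Against KO placebo 13 of the 72 were called, 7 lower and 6 higher, beside 19.6% of all genes. The same scalings gave 22 and 7 lower and 1 and 12 higher. With the background set as a block 3 list genes were called against KO placebo, and within low-background arrays 0.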

How the data were processed

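The authors deposited bead intensities of 45281 probes without background correction or normalization, with a detection p-value for each probe and array, and a table of log2 values. Recomputation gave these log2 values as quantile-normalized raw intensities of 17592 probes, those detected at p under 0.01 on 1 or more arrays. The sources used here do not name the scanner software.

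In R 4.3.3, limma 3.58.1 corrected the background by normexp with the detection p-values (offset 16), then quantile normalization and log2 followed, so differences are relative to most genes. The filter kept the 14295 probes detected at p under 0.05 on 5 or more arrays. One limma fit (lmFit, eBayes, two-sided) over all 19 arrays gave KO SAMe against WT placebo and KO SAMe against KO placebo, with Benjamini-Hochberg adjustment over all probes. It was tested on simulated data. A gene is its brightest probe, except for the 9 genes, of which every probe is given. Names came from the platform annotation and gene order from RefSeq on GRCm38.p6.

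The 9 genes, the gene lists and the settings were chosen with earlier results of these data known. Named besides were up to 8 neighbours per direction, up to 3 genes most like each of the 9, and up to 4 genes per list and comparison by moderated t. The closing section gives the alternatives. Figures were drawn with matplotlib.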

Additional observations from a re-analysis of the deposited data

Results flagged for a closer look

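In 84 groups of arrays (28 probes of the 9 genes, Mat1a and named neighbours, in 3 groups each) the highest and lowest arrays were compared with the rest by Dixon's limit, and 4 groups had an array past it, where chance gives about 1 in 20. At the brightest probe of Cebpe, KO placebo replicate 5 read 4.5, with the next array at 4.27, and it was the KO array on which that probe was detected. At the brightest probe of Supt16, WT placebo replicate 1 read 5.63, with the next at 5.89. Ccser2 read 6.38 on the same WT placebo array, with the next at 6.96, and this array is the WT placebo array of the high-background set. Nisch read 7.79 on WT placebo replicate 7, with the next at 8.4.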

How the results depend on the processing

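The comparison of KO SAMe with WT placebo livers called 15 of 17 probes of the 9 genes, beside 16.3% of all 14295 probes tested. Of the 10 such probes detected on all arrays, 8 were called, and with 1 brightest probe per gene 9 of 9, where fewer probes entered. With 1 array left out, 13 to 16 were called. The WT placebo arrays took part in choosing these genes and alone carried probes not detected in KO livers past the filter. These counts, and the adjusted p-values of the 9 genes against WT placebo livers, are therefore descriptions. Of the 17 probes 12 were 2-fold apart between the means of KO placebo and WT placebo livers. There were 5 in the authors' deposited log2 values, which have no background correction, and 8 with normexp at offset 50. Among probes detected on all arrays there were 7 of 10. When 1 array was left out, 11 to 12 of the 17 were 2-fold apart. The 2 calls between KO SAMe and KO placebo livers became 1 with the authors' log2 values, with normexp at offset 50 and without the detection filter, 5 when each array was scaled to its median over all probes, 4 when it was scaled to that of the filtered probes, and 0 with the background set as a block, within low-background arrays, or within ID letter G. They were 0 to 2 when 1 array was left out. Scaling to the median of all probes also turned 1700123O20Rik to -0.01 (adjusted p = 0.95), and the 2 scalings moved the median KO SAMe minus KO placebo difference of all probes to -0.22 and 0.15. The 23 called neighbours became 15 without the detection filter and 10 within letter K, and 14 to 23 when 1 array was left out. The 12 called list genes against WT placebo became 6 without the filter, 4 within letter K and 7 to 15 when 1 array was left out (7 without KO SAMe replicate 2). The 13 against KO placebo became 23 when scaled to the median of all probes, 6 without the filter, 3 with the block, 0 within low-background arrays and 0 within letter G. They were 7 to 15 when 1 array was left out (8 without KO placebo replicate 1, 7 without replicate 2, 8 without KO SAMe replicate 4). The cause of these changes was not tested. Of 825 recomputed values of single probes, 776 kept their direction and side of the threshold, 45 were no longer called, 3 became called and 1 changed sign. At all 17 probes the KO SAMe minus WT placebo difference was smaller in size in the authors' log2 values and with normexp at offset 50, as for Psmb5 with -1.34 and -1.62 in place of -2.71. No paired analysis was possible because the replicate numbers follow accession order and pair no animals.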
